A study of Homo sapiens with 15 samples.

Results

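The 36 genes described here encode the sensor and transcription factor of the NRF2 pathway and enzymes of detoxification, the thioredoxin and glutathione systems and NADPH supply. They were chosen by name from a deposited table of 26475 genes. The choice did not use their measured values, but earlier results of these data were known. All 36 passed the filter on low counts. RNA-seq was made from A549 cells, a human lung adenocarcinoma line, in 5 groups of 3 libraries. The groups were cells given 10 ng/ml IL4 with Compound A, IL4 with 1 uM of an ALOX15 siRNA pool, IL4 with a non-targeting control siRNA pool, IL4 alone, and no treatment. RNA was extracted after 48 h. The labels give neither the identity nor the dose of Compound A, nor the dose of the control siRNA. They do not say that the 3 libraries of a group were separate cultures either, and the p-values then measure a spread between libraries that may be technical. A549 is 1 cell line that carries a loss-of-function mutation in KEAP1, in all 5 groups.

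NRF2, the product of NFE2L2, is a transcription factor that KEAP1 holds in the cytoplasm and hands to a CUL3 ubiquitin ligase for degradation. Electrophiles and oxidants modify KEAP1, NRF2 then builds up, pairs with small MAF proteins and binds antioxidant response elements. Its targets make and recycle glutathione and thioredoxin, conjugate reactive compounds and supply NADPH. Where KEAP1 is mutated, as in A549, NRF2 is held back poorly and its targets run high without treatment. ALOX15, the lipoxygenase that the siRNA pool targets, oxidises polyunsaturated fatty acids and is an IL4-induced gene of airway epithelium.

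Library totals ran between 6407936 and 11031246 counts. All levels below are normalised CPM, counts scaled to 1e+06 of the TMM-adjusted library total. ALOX15 was at 1.81 to 2.59 CPM in Compound A libraries, 0.136 to 0.319 CPM in ALOX15 siRNA libraries, 3.25 to 3.91 CPM in control siRNA libraries, 4.72 to 6.00 CPM in IL4 libraries and 0 to 0.299 CPM in untreated libraries, so its levels followed the labels of the siRNA and IL4 groups. ALOX15 was also lower with Compound A than with IL4 alone (log2 change -1.23, edgeR adjusted p under 0.05). Against control siRNA libraries its change with Compound A (-0.68) did not pass. Of 9 markers of alveolar type 2 cells, which the labels name as the line's resemblance, SFTPB and SLC34A2 were at 0 in all 15 libraries. SFTPA1, SFTPA2, SFTPC, NKX2-1 and NAPSA stayed under 1 CPM, while ABCA3 and LAMP3 were detected. The epithelial keratins KRT8 and KRT18 were detected in every library. IL4 replicate 1 stood apart from the other libraries. Its score on the second principal component was -34.4, against -11.3 to 21.2 elsewhere, and across genes its deviations followed transcript GC content (Spearman's rho 0.73, against -0.29 to 0.41 elsewhere). The members' calls that use the IL4 libraries are therefore also given without it. GC content followed group in part as well. Its rho was -0.26, -0.25 and -0.20 in the Compound A libraries, against 0.06 and -0.18 in IL4 replicates 2 and 3. Compound A against IL4 is thus partly confounded with the GC trend, also when IL4 replicate 1 is left out.

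RefSeq promoter windows (GRCh38.p14, 250 bases before to 50 after a start) were matched by symbol for 29 of the 36 genes, all but CES1, TRIM16L, PRDX1, SLC7A11, GSR, GSS and MGST2. The letters TGACNNNGC, the core of the antioxidant response element, were searched on both strands. They occurred in a window of 14 of the 29 genes, 48.3%, against 4384 of 27305 genes in the RefSeq table, 16.1%. Of the 29 genes, 9 have several windows, as have 5191 of the 27305. The stretches below are those before the start in the windows of members whose library values are given below. They are shown because these genes did not move together, as the sections on IL4 and Compound A describe. Each is on the gene's own strand with the match in capitals, which reads TGACNNNGC or, on the other strand, GCNNNGTCA.
TXNRD1 (chr12:104215660-104215708, plus strand): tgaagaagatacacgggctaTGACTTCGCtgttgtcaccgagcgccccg
TXNRD1, second start (chr12:104286910-104286958, plus strand): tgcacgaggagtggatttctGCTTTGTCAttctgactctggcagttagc
GCLM (chr1:93909436-93909484, minus strand): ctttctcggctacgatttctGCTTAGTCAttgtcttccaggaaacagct
KEAP1 (chr19:10502797-10502845, minus strand): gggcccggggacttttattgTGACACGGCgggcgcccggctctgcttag
KEAP1, overlapping stretch (chr19:10502774-10502822, minus strand): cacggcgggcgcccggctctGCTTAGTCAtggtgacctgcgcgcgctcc
GPX2 (chr14:64942839-64942887, minus strand): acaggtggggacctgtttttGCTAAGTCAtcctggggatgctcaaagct
GGT1 (chr22:24603144-24603192, plus strand): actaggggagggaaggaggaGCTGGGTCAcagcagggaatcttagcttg
GSTP1 (chr11:67583726-67583774, plus strand): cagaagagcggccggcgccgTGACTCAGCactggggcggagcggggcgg
UGT1A6 (chr2:233692772-233692820, plus strand): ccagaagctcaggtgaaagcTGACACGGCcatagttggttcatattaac
The match of GCLM and that of the overlapping KEAP1 stretch have the same letters. A match is a run of letters and not a measured binding site. The windows of NFE2L2, MAFG, SQSTM1, NQO1, UGDH, OSGIN1, TXN, SRXN1, GCLC, GPX1, GPX3, MGST3, GSTM3, TALDO1 and TKT held no match, which says nothing of sequence outside them.

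Across the 36 genes, IL4 was followed by more decreases than increases. The summed level was 19520 to 20597 CPM in the 12 libraries with IL4, against 22075 to 22185 CPM in untreated libraries. In IL4 libraries 10 members were lower and 3 higher than in untreated libraries at an adjusted p under 0.05 (edgeR's quasi-likelihood test, Benjamini-Hochberg over all 12795 genes tested). Of all genes tested 11.6% were lower and 11.2% higher. Lower members made up 27.8% of the 36 and higher ones 8.33%. The median log2 change was -0.13 over the members and -0.02 over all genes. With Compound A, 5 members were higher and 10 lower than with IL4 alone, or 13.9% and 27.8% of the 36, against 6.35% and 8.07% of all genes. The median log2 change was -0.04 over the members and 0.00 over all genes. Below, a value in parentheses after a gene is its log2 change. No member passed between ALOX15 siRNA and control siRNA. In the 3 comparisons together 22 members passed at least once and 14 did not. Libraries of the groups compared often did not overlap. With IL4, 4 members lay wholly above and 12 wholly below untreated libraries, as did 15.5% and 18% of all genes. With Compound A, 8 lay above and 11 below IL4 libraries, as did 16.1% and 15.7% of all genes. With ALOX15 siRNA, 5 lay above and 9 below control siRNA libraries, as did 9.49% and 9.18% of all genes. Marker genes moved with IL4 too. The summed level of 5 epithelial markers was 8549 to 10533 CPM in IL4 libraries, against 5173 to 5854 CPM in untreated libraries, with KRT8, KRT18 and KRT19 higher and EPCAM lower. That of 9 markers of other cell types was 93.1 to 127 CPM in IL4 libraries, against 69.9 to 78.6 CPM in untreated libraries, and of the 6 tested COL1A1, CD68 and TUBB3 were higher and TP63 lower. The alveolar marker ABCA3 was higher as well. In control siRNA libraries against untreated ones, fewer markers passed. There 1 of the 6 markers of other cell types was higher and 1 lower, and of the 5 epithelial markers 2 were higher and 1 lower. The markers' part in the members' changes was not tested.

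**Figure D1:**
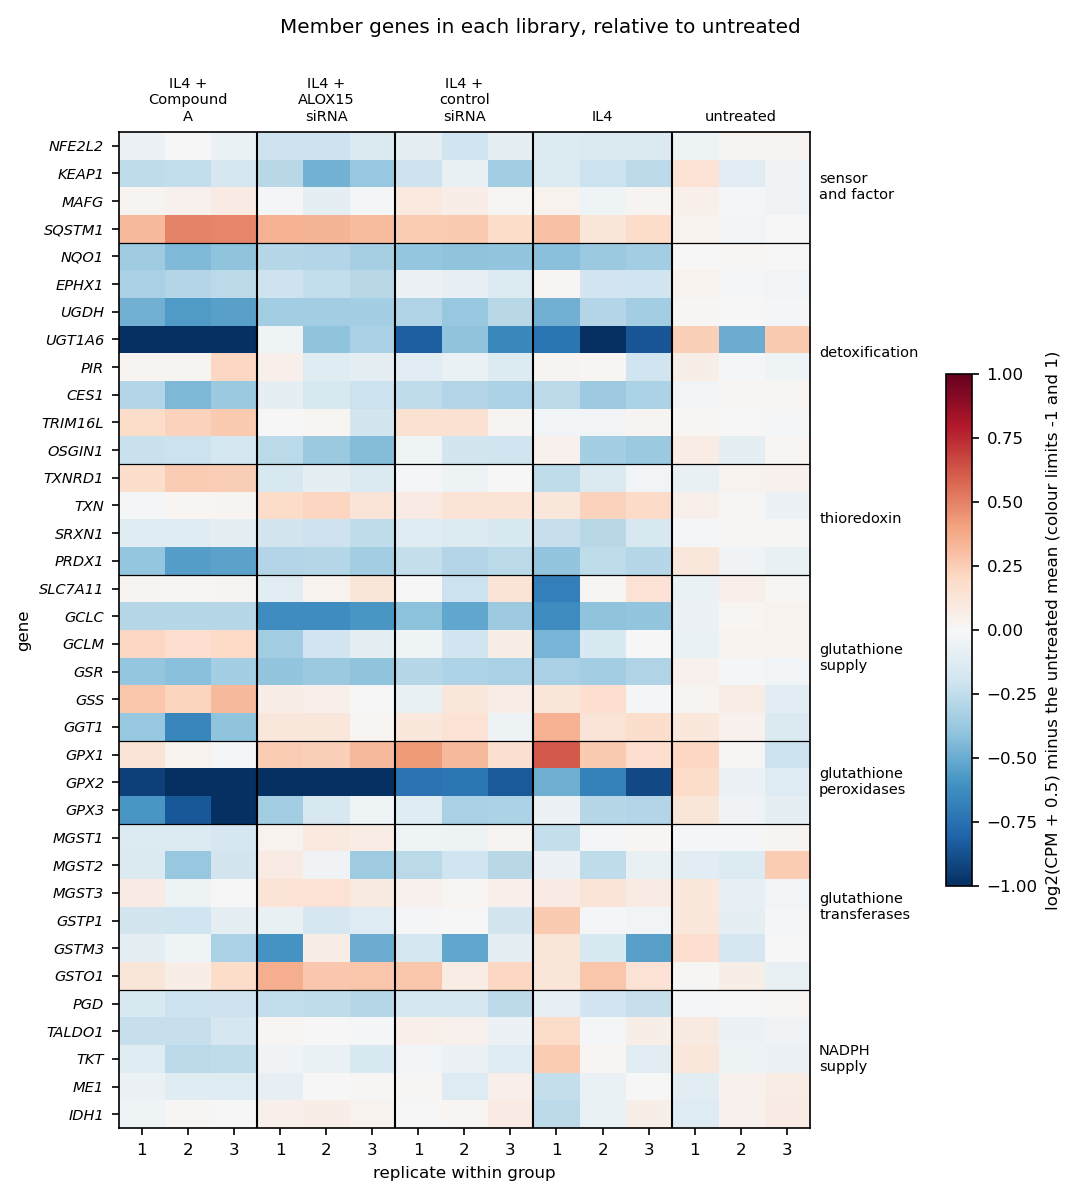
Each row is a gene, grouped by role, and each column a library. Colour gives log2(CPM + 0.5) minus the gene's mean in untreated libraries. GPX2 is blue in all 12 libraries with IL4, GGT1 is darkest blue in the Compound A libraries, and SLC7A11 in IL4 replicate 1.

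With IL4, 4 of 8 detoxification genes fell, NQO1, UGDH, CES1 and UGT1A6, and none rose. NQO1, a quinone reductase and a standard readout of NRF2, had 2048, 2121 and 2148 CPM in IL4 libraries, against 2727, 2761 and 2734 CPM in untreated libraries (log2 change -0.38, SE 0.04, adjusted p = 4.73e-07). UGDH, which makes the UDP-glucuronic acid used in glucuronidation, had 741, 842 and 813 CPM in IL4 libraries, against 1043, 1037 and 1017 CPM in untreated libraries (log2 change -0.37, SE 0.05, adjusted p = 1.31e-05). CES1, a carboxylesterase, had 158, 147 and 153 CPM in IL4 libraries, against 186, 191 and 192 CPM in untreated libraries (log2 change -0.32, SE 0.06, adjusted p = 0.000406). For these 3 genes the groups did not overlap. UGT1A6, a glucuronosyltransferase, was at 3.82, 2.98 and 3.47 CPM in IL4 libraries, against 7.96, 4.58 and 8.09 CPM in untreated libraries (log2 change -0.99, SE 0.30, adjusted p = 0.0213). UGT1A6 is low and noisy, and leaving out IL4 replicate 2, untreated replicate 1 or untreated replicate 3 ended its call, with log2 changes of -0.87, -0.82 and -0.86. It shares exons with the other UGT1A genes, and its expected counts were not whole in any library, so its level is uncertain. CES1, which has a close pseudogene copy, had counts that were not whole in 6 libraries. EPHX1, an epoxide hydrolase (-0.12), OSGIN1 (-0.22), PIR (-0.05) and TRIM16L (-0.01) did not pass. With IL4 replicate 1 left out the calls held for NQO1 (-0.36), UGDH (-0.32), CES1 (-0.34) and UGT1A6 (-1.07), and EPHX1 (-0.19, adjusted p = 0.00195) and OSGIN1 (-0.36, adjusted p = 9.15e-05) were lower too.

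The glutathione genes split with IL4. GPX2, an epithelial glutathione peroxidase, had 467, 412 and 350.5 CPM in IL4 libraries, against 747, 631 and 601 CPM in untreated libraries (log2 change -0.69, SE 0.09, adjusted p = 3.02e-05). The ratio was 0.62, and no IL4 library reached the lowest untreated one. GPX1, the cytosolic glutathione peroxidase, was higher, with 99.6, 77.9 and 73.3 CPM in IL4 libraries, against 75.1, 65.5 and 55.9 CPM in untreated libraries (log2 change 0.34, SE 0.11, adjusted p = 0.0293). Its groups overlapped, and leaving out untreated replicate 2 (0.36) or 3 (0.27) ended its call, as did leaving out IL4 replicate 1, where the log2 change was 0.19 (adjusted p = 0.131). GPX3, the secreted peroxidase, was at 13.2 to 15.6 CPM in IL4 libraries and 15.2 to 17.7 CPM in untreated libraries and did not pass (-0.23). GCLC, the catalytic subunit of glutamate-cysteine ligase, the first enzyme of glutathione synthesis, had 421, 492 and 494 CPM in IL4 libraries, against 626, 658 and 668 CPM in untreated libraries (log2 change -0.47, SE 0.06, adjusted p = 4.88e-06). GSR, which regenerates glutathione with NADPH, had 411, 404 and 417 CPM in IL4 libraries, against 529, 509 and 503 CPM in untreated libraries (log2 change -0.32, SE 0.05, adjusted p = 2.35e-05). Both genes had separate groups. GCLM, the modifier subunit of the ligase, was at 269, 335 and 373 CPM in IL4 libraries, against 355, 380.2 and 381 CPM in untreated libraries (log2 change -0.19, SE 0.09, adjusted p = 0.146), so that the groups overlapped and the change did not pass. IL4 replicate 1 was its lowest library. Without that library the log2 change was -0.07 (adjusted p = 0.501), and without IL4 replicate 3 it was -0.30 and passed (adjusted p = 0.0144). GSS, the second enzyme of the synthesis (0.09), and GGT1, which breaks down extracellular glutathione (0.21), did not pass either. SLC7A11, the cystine importer, stood at 644, 1045 and 1148 CPM in IL4 libraries, against 989.6, 1077 and 1047 CPM in untreated libraries (log2 change -0.13, SE 0.17, adjusted p = 0.624). IL4 replicate 1 was the lowest of all 15 libraries for SLC7A11, and without it the log2 change was 0.08 (adjusted p = 0.575). None of the 6 glutathione transferases passed: MGST1 (-0.07), MGST2 (-0.13), MGST3 (0.10), GSTP1 (0.08), GSTM3 (-0.19) and GSTO1 (0.18). When IL4 replicate 1 was left out, GPX2 (-0.79), GCLC (-0.40) and GSR (-0.32) kept their calls and GSTO1 was higher (0.21, adjusted p = 0.0429). With a correction for GC content, chosen after seeing the data, GPX3 was lower (-0.35, adjusted p = 0.0274) and GPX1 did not pass (0.13).

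In the thioredoxin system IL4 moved members in both directions. PRDX1, a peroxiredoxin that thioredoxin reduces, had 805, 891 and 870.2 CPM in IL4 libraries, against 1149, 1035 and 1006 CPM in untreated libraries (log2 change -0.31, SE 0.06, adjusted p = 0.000403). SRXN1, which repairs overoxidised peroxiredoxins, had 616, 597 and 647 CPM in IL4 libraries, against 714, 729 and 729 CPM in untreated libraries (log2 change -0.22, SE 0.04, adjusted p = 0.000975). Every IL4 library was below every untreated one for both. TXN, thioredoxin itself, rose (log2 change 0.18, SE 0.05, adjusted p = 0.0104), to 629 to 679 CPM in IL4 libraries, against 557 to 599 CPM in untreated libraries. TXNRD1, thioredoxin reductase, was at 2851, 3080.0 and 3338 CPM in IL4 libraries, against 3231, 3482 and 3496 CPM in untreated libraries, and did not pass (log2 change -0.14, SE 0.05, adjusted p = 0.0559). Its decrease passed without IL4 replicate 3 (-0.20, adjusted p = 0.0063), without untreated replicate 1 (-0.15, adjusted p = 0.0436) and with the GC correction (-0.12, adjusted p = 0.0184), and without IL4 replicate 1 it was -0.08 (adjusted p = 0.203). NFE2L2 had 223, 222 and 223 CPM in IL4 libraries, against 237, 250.2 and 250.3 CPM in untreated libraries (log2 change -0.14, SE 0.05, adjusted p = 0.0543). KEAP1 had 67.9, 64.5 and 62.4 CPM in IL4 libraries, against 82.7, 69.5 and 73.1 CPM in untreated libraries (log2 change -0.21, SE 0.08, adjusted p = 0.0634). Neither passed. Without IL4 replicate 1 KEAP1 was lower (-0.25, adjusted p = 0.0245) and NFE2L2 did not pass (-0.14, adjusted p = 0.0534). With the GC correction both were lower, NFE2L2 at -0.15 (adjusted p = 0.0144) and KEAP1 at -0.35 (adjusted p = 6.74e-05). SQSTM1, which binds KEAP1 and is itself an NRF2 target, rose, with 1401, 1243 and 1297 CPM in IL4 libraries, against 1172, 1118 and 1138 CPM in untreated libraries (log2 change 0.20, SE 0.05, adjusted p = 0.00878). The GC correction ended that call (log2 change 0.07, adjusted p = 0.276). MAFG, a small MAF partner of NRF2, had a log2 change of 0.01. Among the NADPH suppliers PGD, the second NADPH-producing step of the pentose phosphate pathway, fell (log2 change -0.17, SE 0.05, adjusted p = 0.0129), but not without any one of ALOX15 siRNA replicate 2, IL4 replicates 2 and 3 and untreated replicates 2 and 3 (-0.13 to -0.14). TALDO1 (0.07), TKT (0.06), ME1 (-0.10) and IDH1 (-0.09) did not pass. PRDX1 (-0.27), SRXN1 (-0.22), TXN (0.21), SQSTM1 (0.15) and PGD (-0.21) kept their calls without IL4 replicate 1. With the 6 IL4 and untreated libraries fitted alone, none of the 3 increases passed, at adjusted p of 0.0797 for TXN, 0.0592 for SQSTM1 and 0.13 for GPX1, nor did SRXN1 (-0.20, adjusted p = 0.0653) and PGD (-0.14, adjusted p = 0.175).

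**Figure D2:**
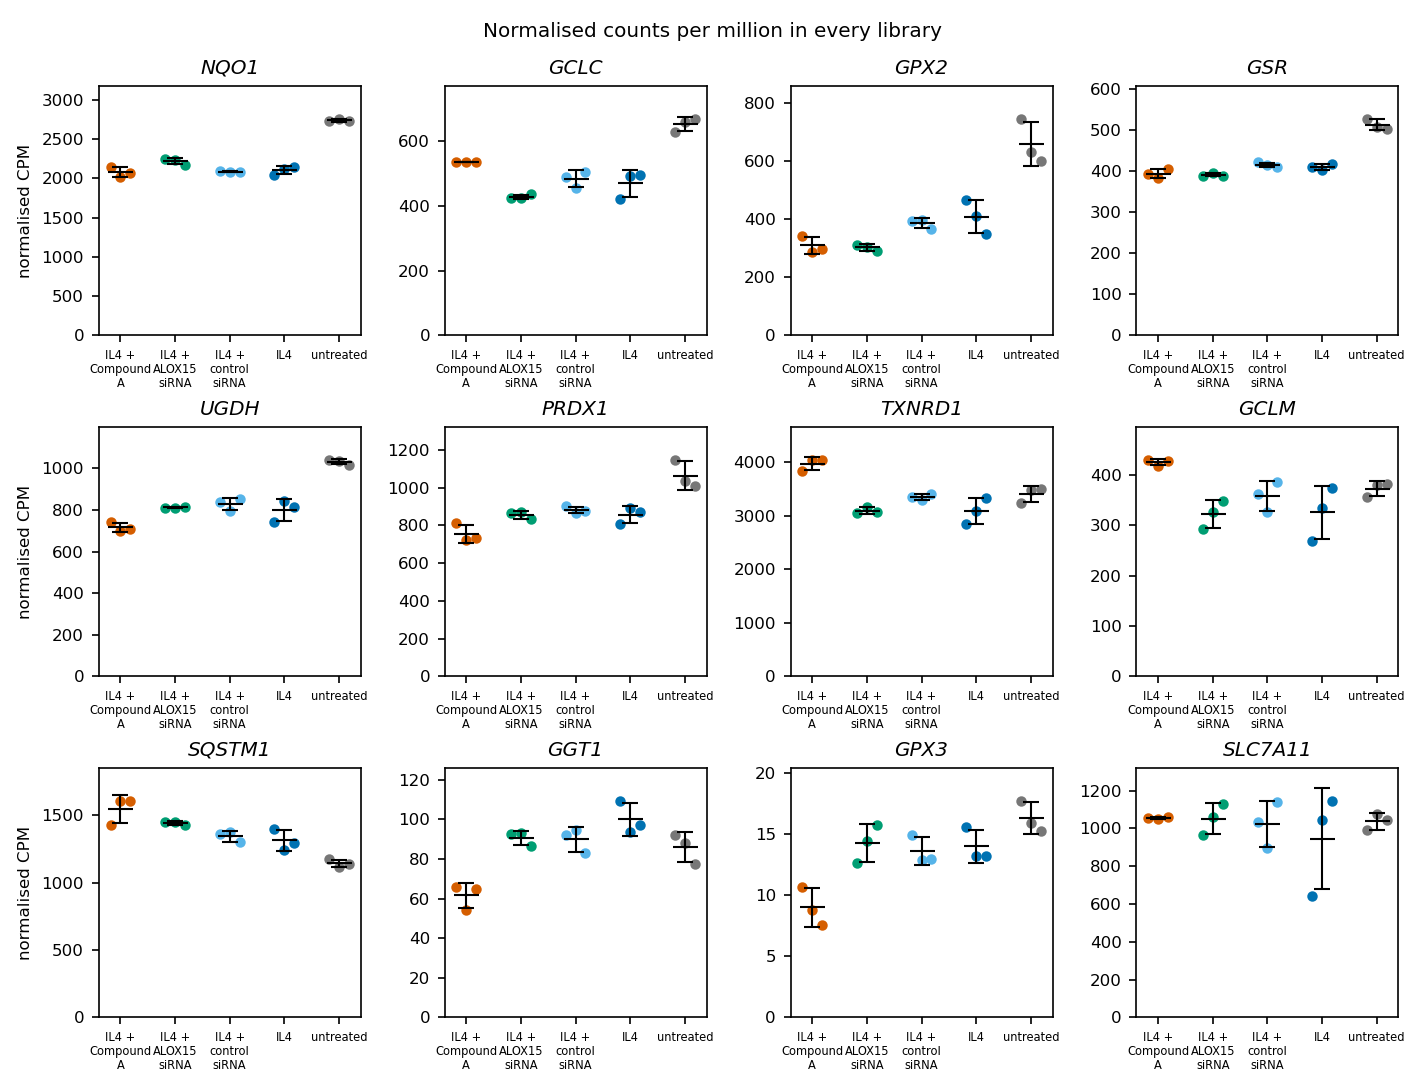
Normalised CPM of 12 members in every library (points), with the mean and SD of each group of 3 (line and bars). NQO1, GCLC, GSR and UGDH are lower in all 12 libraries with IL4 than in untreated libraries, and TXNRD1 is highest in the Compound A libraries.

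The control siRNA libraries gave a second set of cells with IL4, compared with the same untreated libraries. There 9 members were lower and 1 higher, against 9.36% and 9.93% of all genes. NQO1 (-0.39), UGDH (-0.32), CES1 (-0.29), PRDX1 (-0.27), GCLC (-0.43), GSR (-0.31), GPX2 (-0.77), PGD (-0.20) and SRXN1 (-0.14) were lower, and SQSTM1 was higher (0.23). PGD lost its call without control siRNA replicate 3 (-0.15), and SRXN1 in 12 of the 15 fits that left out 1 library, with log2 changes of -0.14 to -0.11. Both sets share the untreated libraries and are not independent. Between the 2 sets of IL4 cells, control siRNA against IL4 alone, edgeR called none of the 36 members and 0% of all genes in either direction. At an unadjusted p under 0.05 it had 2 members and 628 genes, 4.91% of all genes, and DESeq2 called 0 members and 2 genes.

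Against IL4 libraries, the glutamate-cysteine ligase genes and thioredoxin reductase were higher with Compound A, and GGT1 and the peroxidases GPX2 and GPX3 lower. GCLC and GPX2 did not pass without IL4 replicate 1. Against control siRNA libraries GCLM, GCLC and GPX2 did not pass. TXNRD1 had 3836, 4047 and 4034 CPM in Compound A libraries, against 2851, 3080.0 and 3338 CPM in IL4 libraries (log2 change 0.36, SE 0.05, adjusted p = 0.000162). GCLM had 430.0, 418 and 427 CPM in Compound A libraries, against 269, 335 and 373 CPM in IL4 libraries (log2 change 0.38, SE 0.09, adjusted p = 0.0101). All Compound A libraries were above all IL4 libraries for both, and above the untreated ones too, which held 3231 to 3496 CPM of TXNRD1 and 355 to 381 CPM of GCLM. GCLC had 535, 534 and 534 CPM in Compound A libraries, against 421, 492 and 494 CPM in IL4 libraries (log2 change 0.19, SE 0.06, adjusted p = 0.0383). It stayed below the 626 to 668 CPM of untreated libraries. TRIM16L, a TRIM protein gene with the near copy TRIM16 and counts that were not whole in any library, had 486, 502 and 513 CPM in Compound A libraries, against 418, 418 and 435 CPM in IL4 libraries (log2 change 0.24, SE 0.06, adjusted p = 0.00763). SQSTM1 had 1429.9, 1609.8 and 1603 CPM in Compound A libraries, against 1401, 1243 and 1297 CPM in IL4 libraries (log2 change 0.24, SE 0.05, adjusted p = 0.00572). The lowest Compound A library of SQSTM1 was only just above the highest IL4 library. NFE2L2 (235, 245 and 235 CPM in Compound A libraries, log2 change 0.10, SE 0.05, adjusted p = 0.203) and KEAP1 (62.7, 63.0 and 66.6 CPM, log2 change -0.02, SE 0.08, adjusted p = 0.893) did not pass, nor did MAFG (0.04).

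The largest decreases with Compound A among members that passed were in GGT1 and the peroxidases. GGT1, which cleaves extracellular glutathione, had 65.7, 54.4 and 64.9 CPM in Compound A libraries, against 109.5, 93.6 and 97.2 CPM in IL4 libraries (log2 change -0.70, SE 0.09, adjusted p = 5.15e-05). The ratio was 0.61, and the 12 other libraries held 77.6 to 109.5 CPM. GGT1 has near copies in the genome and its counts were not whole in any library, so reads of those copies may be split with it. GPX3 had 10.7, 8.81 and 7.55 CPM in Compound A libraries, against 15.6, 13.2 and 13.2 CPM in IL4 libraries (log2 change -0.62, SE 0.14, adjusted p = 0.0066). GPX2 had 344, 289 and 298 CPM in Compound A libraries, against 467, 412 and 350.5 CPM in IL4 libraries (log2 change -0.40, SE 0.09, adjusted p = 0.00989). The untreated libraries, at 601 to 747 CPM, lay above both groups. GPX1 did not pass (log2 change -0.31, SE 0.11, adjusted p = 0.0625). Of the pentose phosphate enzymes, TALDO1, transaldolase, had 297, 297 and 310.2 CPM in Compound A libraries, against 397, 344 and 364 CPM in IL4 libraries (log2 change -0.29, SE 0.06, adjusted p = 0.00327). TKT, transketolase, had 1290.0, 1164 and 1176 CPM in Compound A libraries, against 1668, 1417 and 1299 CPM in IL4 libraries (log2 change -0.27, SE 0.07, adjusted p = 0.0175). Both enzymes carry the non-oxidative branch, and their groups did not overlap. GSTP1, a glutathione transferase, had 344, 341 and 366 CPM in Compound A libraries, against 469, 385 and 384 CPM in IL4 libraries (log2 change -0.24, SE 0.07, adjusted p = 0.0388). EPHX1 (-0.18, adjusted p = 0.0366), PRDX1 (-0.18, adjusted p = 0.0423), TXN (-0.17, adjusted p = 0.0243) and UGDH (-0.16, adjusted p = 0.0407) fell by less. UGT1A6 had 0.302, 2.11 and 2.25 CPM in Compound A libraries and missed the threshold against IL4 libraries (log2 change -1.14, SE 0.38, adjusted p = 0.0518). NQO1 (2145, 2017 and 2069 CPM in Compound A libraries) showed no change beyond the spread, with a 95% interval of -0.10 to 0.06 for its log2 change. SLC7A11 (1057, 1047 and 1059 CPM in Compound A libraries) had a wide interval, -0.21 to 0.53. GSR (-0.06), GSS (0.18), SRXN1 (0.11), CES1 (-0.05), PIR (0.14), OSGIN1 (0.01), PGD (-0.02), ME1 (0.00), IDH1 (0.08) and the other transferases, MGST1 (-0.07), MGST2 (-0.11), MGST3 (-0.09), GSTM3 (0.03) and GSTO1 (-0.06), did not pass.

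**Figure D3:**
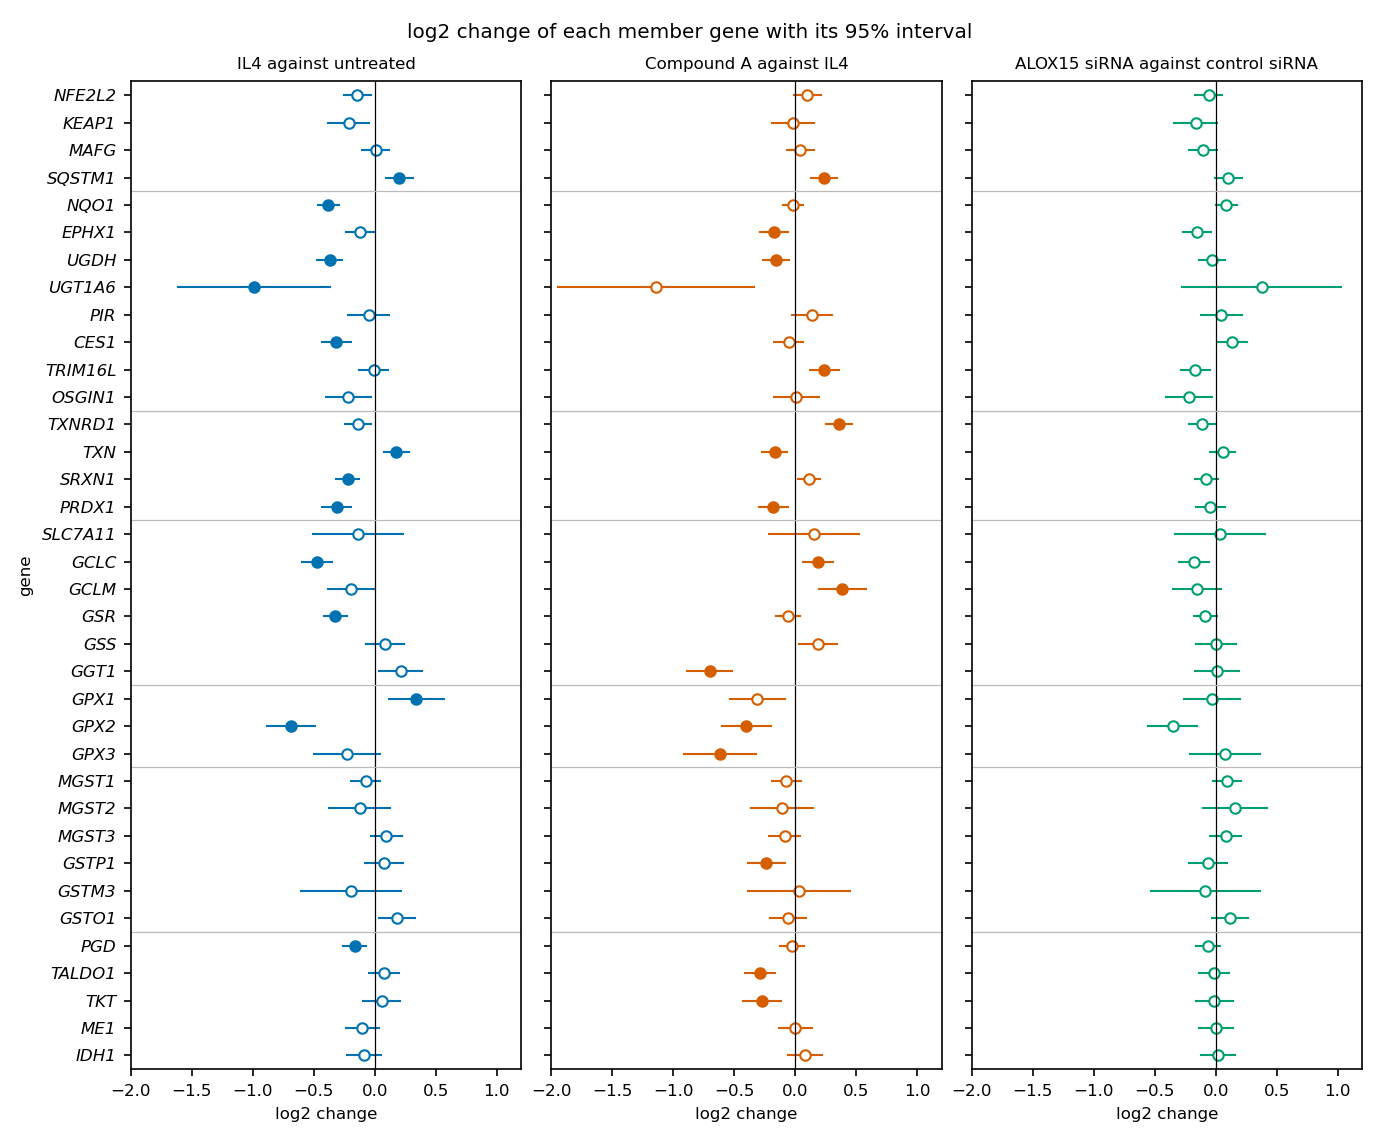
log2 change of each of the 36 members in 3 comparisons (points) with its 95% interval (lines). Filled points had an adjusted p under 0.05. With IL4, 10 members are filled to the left of 0 and 3 to the right. With Compound A, 10 are to the left and 5 to the right, and with ALOX15 siRNA none is filled.

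The promoter letters occurred in members of both directions. TXNRD1 and GCLM, higher with Compound A, hold the motif in the stretches above, and so do GGT1, GPX2 and GSTP1, which were lower. EPHX1, also lower, has a match in 1 of its 3 windows. SQSTM1 and GCLC, higher with Compound A, have none in their windows, nor have GPX3, TALDO1, TKT, TXN and UGDH, which were lower.

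The members called with Compound A depended in part on the IL4 libraries they were set against. TXNRD1, GCLM, TRIM16L, GGT1, GPX3 and TALDO1 passed in all 15 fits that left out 1 library. The other 9 did not. Calls over all genes moved too, with 294 to 1493 higher and 475 to 1523 lower in those fits. Without IL4 replicate 1, GCLC (0.12), EPHX1 (-0.10), GSTP1 (-0.13) and GPX2 (-0.30) no longer passed, with adjusted p of 0.145, 0.183, 0.155 and 0.0853, and TKT kept its call at -0.17. In that fit 4 members were higher, all among the first 5, and 8 were lower, 7 of them among the first 10. There the calls held for TXNRD1 (0.31), GCLM (0.26), TRIM16L (0.23), SQSTM1 (0.29), GGT1 (-0.64), GPX3 (-0.54), TALDO1 (-0.23), PRDX1 (-0.22), UGDH (-0.21) and TXN (-0.20), and MGST1 was lower too (-0.15). With the GC correction, GSTP1 (-0.03, adjusted p = 0.693) and EPHX1 (-0.04, adjusted p = 0.537) did not pass. The other 13 passed with it, with smaller changes in TALDO1 (-0.15), TKT (-0.14) and GCLM (0.24) and larger ones in SQSTM1 (0.39) and UGDH (-0.24). It also put MAFG (0.18), OSGIN1 (0.24), SRXN1 (0.19) and GSS (0.28) higher and UGT1A6 (-1.19) and MGST1 (-0.14) lower past the threshold. Without Compound A replicate 2, 3 members were higher and 3 lower. SQSTM1, GPX2, TKT, EPHX1, UGDH, TXN, PRDX1, GCLC and GSTP1 each lost their call there. Without Compound A replicate 3, 4 were lower, and EPHX1, UGDH, TXN, PRDX1, GCLC, GSTP1 and TKT did not pass. Without Compound A replicate 1, EPHX1, TXN, GCLC and GSTP1 did not. UGDH and PRDX1 also lost their call without IL4 replicate 2 or 3, and TXN without IL4 replicate 2. Leaving out libraries outside the comparison ended the calls of GCLC, GSTP1, UGDH and PRDX1, namely ALOX15 siRNA replicate 1 for these 4, ALOX15 siRNA replicate 3 for GCLC and GSTP1, control siRNA replicate 2 for PRDX1, and ALOX15 siRNA replicate 2, control siRNA replicate 1 and untreated replicate 2 for GCLC. With the 6 libraries of the comparison fitted alone, TXNRD1 and GGT1 passed.

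Against the control siRNA libraries, 2 members were higher with Compound A and 7 lower, against 1.86% and 3.42% of all genes. TXNRD1 (log2 change 0.25, SE 0.05, adjusted p = 0.00725) and SQSTM1 (0.20, adjusted p = 0.0279) were higher. The control siRNA libraries held 3353, 3289 and 3403 CPM of TXNRD1 and 1362, 1373 and 1299 CPM of SQSTM1. GGT1 (log2 change -0.55, SE 0.09, adjusted p = 0.000871), GPX3 (-0.58), UGT1A6 (-1.44), PRDX1 (-0.22), TALDO1 (-0.22), UGDH (-0.21) and EPHX1 (-0.20) were lower, with adjusted p between 0.000871 and 0.0334. GCLM (0.25, adjusted p = 0.136), GCLC (0.15, adjusted p = 0.167) and GPX2 (-0.32, adjusted p = 0.063) did not pass. TXNRD1 and GGT1 passed in all 15 fits that left out 1 library, and the other 7 lost their call in 4 to 10 of them. GGT1 was the only lower member when Compound A replicate 2 was left out, and likewise for control siRNA replicate 1. Leaving out Compound A replicate 3, control siRNA replicate 2 or control siRNA replicate 3 left 2 or 3 lower members. Over all genes, the fits that left out 1 library called 155 to 897 lower. UGT1A6 moved to -0.94 without Compound A replicate 1. With the GC correction EPHX1 did not pass (-0.12, adjusted p = 0.054) and TALDO1 was at -0.14 (adjusted p = 0.0395). Compound A and control siRNA differ in the siRNA as well as the compound, and within this comparison those parts cannot be told apart. Control siRNA against IL4 alone, given above, called no member. No group is labelled as a vehicle control for Compound A, so its vehicle cannot be told apart from the compound either.

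**Figure D4:**
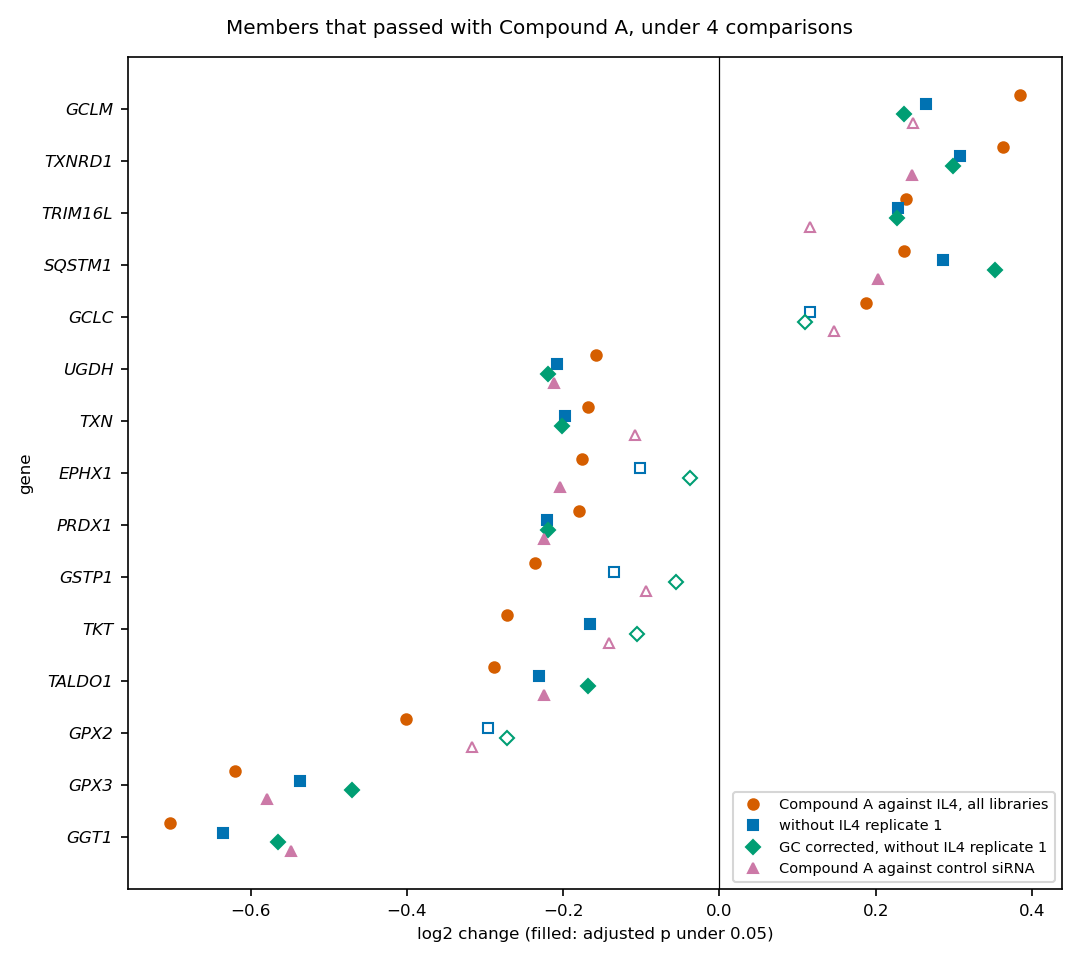
log2 change of the 15 members that passed in Compound A against IL4, in that comparison and 3 further ones (marker shapes). Filled markers had an adjusted p under 0.05. TXNRD1, SQSTM1, UGDH, PRDX1, TALDO1, GPX3 and GGT1 are filled in all 4.

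Markers of other cell types moved with Compound A. The summed level of 9 such markers was 59.3 to 73.5 CPM in Compound A libraries, against 93.1 to 127 CPM in IL4 libraries, 79.0 to 95.7 CPM in control siRNA libraries and 69.9 to 78.6 CPM in untreated libraries. Of the 6 with enough counts to test, 5 were lower with Compound A than with IL4 (COL1A1, CD68, LUM, TUBB3 and TP63), and the leukocyte marker PTPRC was at 0 in all 15 libraries. Against control siRNA libraries only 1 of the 6 was lower. LUM was low everywhere, at 0.235 to 1.97 CPM. The marker calls are not given without IL4 replicate 1. Summed epithelial markers were at 7341 to 8196 CPM in Compound A libraries, against 8549 to 10533 CPM in IL4 libraries and 5173 to 5854 CPM in untreated libraries. Of these 5 markers, 4 were lower with Compound A than with IL4 and 1 was lower than with control siRNA. Their part in the members' changes was not tested. In bulk RNA of 1 cell line, fewer cells that express a marker and less of its RNA per cell cannot be told apart.

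ALOX15 siRNA changed none of the 36 members past the threshold, where 0.313% of all genes were higher and 0.383% lower. DESeq2 called 0 members too, and 120 of all genes. In edgeR 8 members, 2 higher and 6 lower, had an unadjusted p under 0.05, as had 8.91% of all genes. GPX2 came closest, with 313, 305 and 291 CPM in ALOX15 siRNA libraries, against 394, 398 and 367 CPM in control siRNA libraries (log2 change -0.35, SE 0.10, adjusted p = 0.13). All ALOX15 siRNA libraries were below all control siRNA libraries, as for 9.18% of all genes, and the 95% interval of the log2 change was -0.55 to -0.15. GCLC had 423, 424 and 435 CPM in ALOX15 siRNA libraries, against 489, 454 and 505 CPM in control siRNA libraries (log2 change -0.18, SE 0.06, adjusted p = 0.273), also without overlap. GCLM had 293, 326 and 348 CPM in ALOX15 siRNA libraries, against 361, 326 and 386 CPM in control siRNA libraries (log2 change -0.15, SE 0.09, adjusted p = 0.692), with overlap. TXNRD1 had 3043, 3170.3 and 3072 CPM in ALOX15 siRNA libraries, against 3353, 3289 and 3403 CPM in control siRNA libraries (log2 change -0.11, SE 0.05, adjusted p = 0.512). NQO1 had 2246, 2232 and 2173 CPM in ALOX15 siRNA libraries, against 2097, 2076 and 2083 CPM in control siRNA libraries (log2 change 0.09, SE 0.04, adjusted p = 0.514), and here the ALOX15 siRNA libraries were the higher ones. NFE2L2 (213, 213 and 223 CPM in ALOX15 siRNA libraries, 231, 214 and 231 CPM in control siRNA libraries), KEAP1 (61.7, 53.9 and 57.5 CPM in ALOX15 siRNA libraries, 64.7, 71.0 and 58.8 CPM in control siRNA libraries) and SLC7A11 (964, 1062 and 1129 CPM in ALOX15 siRNA libraries, 1036, 895 and 1141 CPM in control siRNA libraries) had log2 changes of -0.06, -0.17 and 0.04.

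Under other settings some of these decreases passed. Calls over all genes changed as well, with 23 to 124 lower in the fits that left out 1 library. For the other fits of this paragraph the share of all genes is not given, so their member counts cannot be set against it. With the 6 siRNA libraries fitted alone, GPX2 (adjusted p = 7.62e-06), GCLC (0.0186), EPHX1 (0.0342) and OSGIN1 (0.044) were lower. Without IL4 replicate 1, GCLC (-0.18, adjusted p = 0.0266) and EPHX1 (-0.15, adjusted p = 0.0495) were lower, and without IL4 replicate 3, GPX2 was (adjusted p = 0.0354). With the correction for GC content, GPX2 (-0.34), GCLC (-0.20), GCLM (-0.18) and TRIM16L (-0.17) were lower. With IL4 replicate 1 left out as well, 6 members were lower, among them GPX2 (-0.35), GCLC (-0.21), GCLM (-0.19) and TXNRD1 (-0.14, adjusted p = 0.0113). GPX2 lay between -0.34 and -0.35 in these fits. The other 28 members had log2 changes between -0.22 and 0.38.

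Compound A and ALOX15 siRNA differed in their effect on 6 members, tested as the change with Compound A over IL4 minus the change with ALOX15 siRNA over control siRNA. The effect of Compound A was higher for TXNRD1 (log2 change 0.48, SE 0.07, adjusted p = 0.000481), GCLM (log2 change 0.54, SE 0.13, adjusted p = 0.0215), TRIM16L (log2 change 0.40, SE 0.08, adjusted p = 0.00414) and GCLC (log2 change 0.36, SE 0.08, adjusted p = 0.0137). It was lower for GGT1 (log2 change -0.72, SE 0.12, adjusted p = 0.0014) and GPX3 (log2 change -0.69, SE 0.20, adjusted p = 0.0457). Of all genes 1.94% were higher and 3.2% lower. GGT1 was at 92.6, 93.1 and 86.7 CPM in ALOX15 siRNA libraries, against 92.1, 94.9 and 83.0 CPM in control siRNA libraries, and GPX3 at 12.7, 14.5 and 15.8 CPM in ALOX15 siRNA libraries, against 14.9, 12.9 and 13.0 CPM in control siRNA libraries, so that the siRNA groups overlapped for both. For GPX2 the difference was -0.05 with a 95% interval of -0.33 to 0.23. GCLM lost its call without ALOX15 siRNA replicate 1 or control siRNA replicate 1 or 3 (log2 0.42 to 0.65 over all fits that left out 1 library), and GPX3 in 11 of those 15 fits (-0.84 to -0.60). TXNRD1, TRIM16L, GCLC and GGT1 passed in all 15. The differences without IL4 replicate 1 were 0.42 for TXNRD1, 0.42 for GCLM, 0.40 for TRIM16L, 0.29 for GCLC, -0.65 for GGT1 and -0.61 for GPX3, which did not pass (adjusted p = 0.0716), and OSGIN1 (0.37), TXN (-0.25) and MGST1 (-0.24) passed too.

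Of 69 other genes of the pathway 65 were tested. With IL4, 14 were higher and 11 lower than in untreated libraries, or 21.5% and 16.9% of them, against 11.2% and 11.6% of all genes. The counts were 14 and 10 without IL4 replicate 1. Among them AKR1B1, an aldose reductase, rose (1.07), as did GPX4, the phospholipid hydroperoxidase (0.77), and HMOX1, heme oxygenase (0.38), while ALDH3A1 (-0.29), AKR1B10 (-0.25) and the AKR1C genes fell (-0.23 for AKR1C1). The AKR1C genes are near copies whose reads may be shared, and AKR1C2 did not pass without IL4 replicate 1. With Compound A, 6 were higher and 4 lower than with IL4 alone, or 9.23% and 6.15% of them, near the 6.35% and 8.07% of all genes. Those counts were 5 and 1 without IL4 replicate 1. HMOX1 rose by 0.95 and ALDH3A1 by 0.26, and 4 of the 7 other factors of the pathway rose: the small MAF genes MAFF (0.54) and MAFK (0.46), the repressor BACH1 (0.37) and the ligase scaffold CUL3 (0.25). Without IL4 replicate 1, MAFF (0.59) and MAFK (0.47) passed and BACH1 and CUL3 did not. The 4 that fell were AKR1B10 (-0.27), CBR1 (-0.26), CBR3 (-1.16) and ABHD4 (-0.22), of which AKR1B10 alone passed without that library. With ALOX15 siRNA, AKR1B1 (-0.30) and ALDH3A1 (-0.46) were lower than with control siRNA and no other gene of the list passed, where 1 was higher and 4 lower without IL4 replicate 1. ALDH3A1 thus rose with Compound A and fell with ALOX15 siRNA, and the difference between those changes was 0.72 (adjusted p = 0.000319).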

How the data were processed

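The authors deposited a table of RSEM expected counts per gene. Per the submitters' processing notes, Bowtie2 2.1.0, RSEM 1.2.15 and the hg38 build were used. The annotation, read filters and strand setting are not given in the sources used here. Expected counts were rounded to whole numbers. Genes with low counts were removed with edgeR's filterByExpr, which left 12795 of 26475 genes and at least 99.87% of each library's counts. Libraries were scaled by TMM and fitted with edgeR 4.0.16 (robust quasi-likelihood, R 4.3.3, limma 3.58.1), 1 coefficient per group over all 15 libraries, so that the groups share 1 estimate of spread (common biological coefficient of variation 0.0731). p-values were Benjamini-Hochberg adjusted over all genes tested, with a threshold of 0.05. Standard errors are the absolute log2 change over the square root of F, and 95% intervals use the fit's degrees of freedom. Levels are CPM of the deposited counts, a scale that does not allow for gene length, so levels are not compared between genes.

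Depth was 6407936 to 11031246 counts per library, and no libraries agreed within counting noise. All 36 genes are named. Library values are given for up to 10 members with the largest log2 change among those that passed in each of IL4, Compound A and ALOX15 siRNA against its control, and for 8 fixed members. The genes, lists and comparisons were chosen with earlier results of these data known. In the list of other pathway genes, 1 gene is not reported here. The fit was repeated with DESeq2 1.42.0, with a replicate block, on only the groups compared, without each library in turn, with the low-count filter dropped or raised to 1 CPM in 3 libraries, and with RLE or upper-quartile in place of TMM scaling. A correction for transcript GC content (loess, span 0.3, GENCODE v29), alone and without IL4 replicate 1, was added after seeing the data. It had a value for 95.1% of tested genes. The script was tested on simulated data.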

Additional observations from a re-analysis of the deposited data

How the results depend on the processing

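RLE scaling, the stricter filter and DESeq2 left every count of called members within 1.5 times its value. Members called higher and lower were 3 and 10 for IL4, 5 and 10 for Compound A against IL4, 0 and 0 for ALOX15 siRNA, 1 and 9 for control siRNA with IL4 against untreated, 2 and 7 for Compound A against control siRNA, and 4 and 2 for the difference between Compound A and ALOX15 siRNA. In that order, fitting only the groups compared gave 0 and 8, 1 and 1, 0 and 4, 2 and 9, 5 and 10, and 4 and 1. The cause was not tested. With the GC correction these were 2 and 16, 9 and 10, 0 and 4, 3 and 16, 5 and 10, and 8 and 6, and without IL4 replicate 1 as well 3 and 15, 7 and 7, 0 and 6, 4 and 16, 7 and 11, and 8 and 3. Upper-quartile scaling gave 1 and 7 for Compound A against control siRNA and 4 and 4 for the difference, for which no filter gave 4 and 1. Leaving out 1 library gave 2 to 5 higher and 8 to 13 lower for IL4, 3 to 6 and 3 to 11 for Compound A, 0 and 0 to 2 for ALOX15 siRNA, 1 to 4 and 7 to 10 for control siRNA with IL4, 1 to 5 and 1 to 10 for Compound A against control siRNA, and 3 to 5 and 1 to 4 for the difference. Over all genes these fits called 1182 to 1597 higher and 800 to 1714 lower for IL4. For Compound A they called 294 to 1493 and 475 to 1523, and for ALOX15 siRNA 12 to 148 and 23 to 124. Control siRNA with IL4 gave 998 to 1654 and 759 to 1761. Compound A against control siRNA gave 65 to 741 and 155 to 897, and the difference 111 to 515 and 213 to 638. All-gene calls with the GC correction or with only the groups compared are not given. Same-numbered libraries correlated at -0.13 to 0.29 in their deviations from the group means (median 0.02, 8 of 30 pairs over 0.1). Differently numbered libraries of 2 groups correlated at -0.24 to 0.23 (median -0.01, 7 of 60 pairs over 0.1). These values do not settle whether the labels' replicate numbers pair the libraries. With the numbers as a replicate block, TXNRD1 and KEAP1 with IL4 passed (adjusted p = 0.0241 and 0.0485), ALOX15 siRNA called 1 member lower (GPX2), control siRNA with IL4 called 2 higher, and the difference called 5 lower. SLC7A11 with IL4 reversed to 0.024 with the GC correction and 0.12 when IL4 replicate 1 was left out as well (adjusted p = 0.0247), and ranged between -0.30 and 0.079 when 1 library was left out, the highest without IL4 replicate 1. SLC7A11 with Compound A reversed to -0.082 under the GC correction without IL4 replicate 1, and ranged between -0.056 (without IL4 replicate 1) and 0.32. SLC7A11 with ALOX15 siRNA ranged between -0.049 and 0.12. KEAP1 with Compound A reversed to 0.15 with the GC correction and 0.078 without IL4 replicate 1 as well, and ranged between -0.051 and 0.012, the highest without IL4 replicate 1. The calls and intervals cover a spread between libraries that may be technical, and with 3 libraries a group the intervals of low genes such as UGT1A6 and GSTM3 are wide.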
